A study of Sus scrofa with 32 samples.

Results

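The genes described here are the chemokine genes CCL5, CCL4, CCL3L1 and CXCL8, 4 of the 25880 genes in the count matrices. They were taken by symbol as a fixed list with no threshold on their values, but with earlier results of these data known. They were followed in 48594 cells of the pig, 35359 from the ileum and 13235 from blood. Single-cell RNA-seq libraries came from 2 mixed-breed pigs of 7 weeks, pig 1 labelled female and pig 2 labelled male, with no treatment named in the labels. From each pig, ileum was dissected into a piece with Peyer's patches (PP), a patch-free piece (non-PP) and a whole piece holding both, with 1 library each, and peripheral blood mononuclear cells (PBMCs) gave the other 2 of the 8 libraries. In droplet sequencing each captured RNA molecule carries the barcode of its cell and a unique molecular identifier (UMI), so a count is a count of molecules. Cells entered with at least 550 genes and within the study's limits on UMIs and on mitochondrial UMIs, which left 3770 to 7700 cells per library with a median of 2575 to 3584 UMIs. Pig was the replicate (n = 2). The main fits had no pig term and took the spread of a gene from all cell groups together, counting the sums of 1 pig as independent. The p-values thus speak for these 2 pigs and no more.

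Chemokines are small secreted proteins that guide leukocytes along a gradient by binding receptors coupled to G proteins. CCL5 (RANTES), CCL4 (MIP-1β) and CCL3L1, a gene of the MIP-1α type, encode CC chemokines that draw T cells and monocytes, and CCL5 and the MIP-1α proteins bind CCR1. Killer lymphocytes keep CCL5 message ready long after activation, whereas CCL3 and CCL4 type genes are switched on within hours of receptor signals and fade again. CXCL8 (interleukin-8) binds CXCR1 and CXCR2 and is the classic attractant of neutrophils, made by epithelial cells, macrophages and other cells on NF-κB signals.

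In the RefSeq table of Sscrofa11.1, the assembly the authors aligned to, CCL4 (ENSSSCG00000038096, chr12:39479190-39480511), CCL3L1 (ENSSSCG00000017700, chr12:39491999-39493345) and CCL5 (ENSSSCG00000017705, chr12:39652731-39659121) lay near each other on chromosome 12. CXCL8 (ENSSSCG00000008953, chr8:69932646-69935861) lay on chromosome 8. A second entry between CCL4 and CCL3L1, ENSSSCG00000032343, carried the name CCL4 in the name table too. It held 126 UMIs beside 2470 of CCL4 in the ileum, 4.85% of both, and 125 beside 510 in blood, 19.7% of both. If these entries are near-identical copies, reads may be counted under the wrong entry or under neither, which the counts cannot show. These shares thus set no limit on the uncertainty of CCL4 values. Each CCL4 test was repeated on the summed entries, which does not restore reads counted under neither. The counts behind the other genes were 909055 UMIs of CCL5, 6756 of CCL3L1 and 4668 of CXCL8 in ileal cells, and 439152, 3819 and 2 in blood cells.

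Cells were assigned by the UMIs of a few lineage genes, here called gates. T cells had CD3E as the lineage gene detected, B cells CD79B, epithelial cells EPCAM and myeloid cells SIRPA, and cells with more than 1 of these were kept apart as mixed. T cells were divided into CD4 T, CD8B T, γδ T with or without CD2 (by TRDC) and other T cells in which none or several of these genes were seen. The innate gate took cells with none of the 4 lineage genes, with CD2 and with no IL22. These cells also had no UMI of CD3D, CD5, CD6, CD4, CD8B or TRDC. Among T cells, a UMI of IL22 made the IL22+ T gate. Cells with none of the lineage genes and a UMI of IL22 made the IL22+ innate gate. The rules on CD2 and T cell genes did not apply to the IL22+ innate gate. Called other innate cells beside it, the innate gate thus differs from it in these rules too. The level of a gene in a gate is its summed UMIs scaled to the gate's total as CPM, given as pig 1 and pig 2 in that order.

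Markers that the gates did not use fitted most labels. KRT8, an epithelial keratin, reached 5154 and 5177 CPM in the epithelial gate against 14.6 and 6.11 CPM in ileal B cells. The IL22+ innate gate held the group 3 innate lymphoid markers IL23R (102 and 108 CPM) and KIT (462 and 444 CPM). It was not pure, with the myeloid gene CST3 at 2799 and 79.2 CPM and the plasma cell gene JCHAIN at 659 and 3854 CPM. The T cell gene CD3D was at 40.8 and 47.5 CPM there. The innate gate was not pure either. It held the killer cell receptor KLRK1 at 699 and 943 CPM in the ileum and at 865 and 527 CPM in blood. KLRK1 was higher still in ileal CD2+ γδ T cells, at 1128 and 1316 CPM. Other killer cell receptors were low in the innate gate. NCR1 was at 0 and 9.74 CPM in the ileum and 43.5 and 31.7 CPM in blood. KLRD1 was at 0 and 0 CPM in the ileum and 0.776 and 0 CPM in blood. The innate gate also held CST3 at 4735 and 4368 CPM in the ileum and JCHAIN at 8992 CPM in ileal pig 2. In blood it held the myeloid gene LYZ at 2079 and 2067 CPM. Narrowed innate gates without cells holding such genes were therefore tested too, and their values are given where they bear on a result. The myeloid gates of the tissues differed in markers. The 52 and 41 ileal cells had the monocyte gene S100A9 at 0, LYZ at 1444 and 200.3 CPM and the mast cell gene MS4A2 at 374 and 420 CPM, while the 740 blood cells had S100A9 at 286 and 629 CPM, LYZ at 10249 and 3856 CPM and MS4A2 at 189 and 151 CPM.

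The library labelled whole ileum of pig 1 went against its label. Y-linked genes summed to 207 CPM in it, within the 119 to 226 CPM of the libraries of pig 2, while the other ileal libraries of pig 1 had 0.129 and 0.224 CPM and its PBMC library none. The ileal sums of pig 1 hold this library and may not be of 1 animal, so the spread between pigs is uncertain there. Results that change their call, or levels that move over 1.5-fold, without this library are given both ways. Libraries shared 21 to 79 cell barcodes in each of 28 pairs, at most 1.23% of the smaller. Ileal tissue was shaken at 37 °C, digested and cleared of dead cells, while PBMCs were isolated from blood in separation tubes, so tissue and preparation cannot be told apart.

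T cells held most of the CC chemokine message in both tissues. Over the pooled ileal libraries, epithelial cells held the largest share of CXCL8 message of any gate. CD8B T cells made up 6.74% of ileal cells and held 19.97% of CCL5, 24.5% of CCL4 and 24.7% of CCL3L1 UMIs. CD2+ γδ T cells, 8.37% of ileal cells, held 21.8%, 13.4% and 6.38% of the UMIs of these genes. In blood CD8B T cells were 8.15% of cells and held 21.2% of CCL5, 24.1% of CCL4 and 24.9% of CCL3L1 UMIs. B cells were 40.2% of ileal cells and held 2.13%, 3.64% and 2.25%. CXCL8 was placed elsewhere. Epithelial cells were 1.24% of ileal cells and held 41.6% of CXCL8 UMIs, IL22+ innate cells were 0.594% and held 7.69%, and myeloid cells were 0.263% and held 4.91%. A further 27.6% of CXCL8 UMIs lay in mixed cells, which are in no comparison. These shares pool pigs and libraries, so libraries with more CXCL8 weigh more. PP and non-PP of pig 1 held 1559 and 1391 CXCL8 UMIs, and those of pig 2 held 422 and 388. Epithelial CXCL8 was at 681 CPM in pig 1 and 198 CPM in pig 2, and the share per pig is not given.

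**Figure D1:**
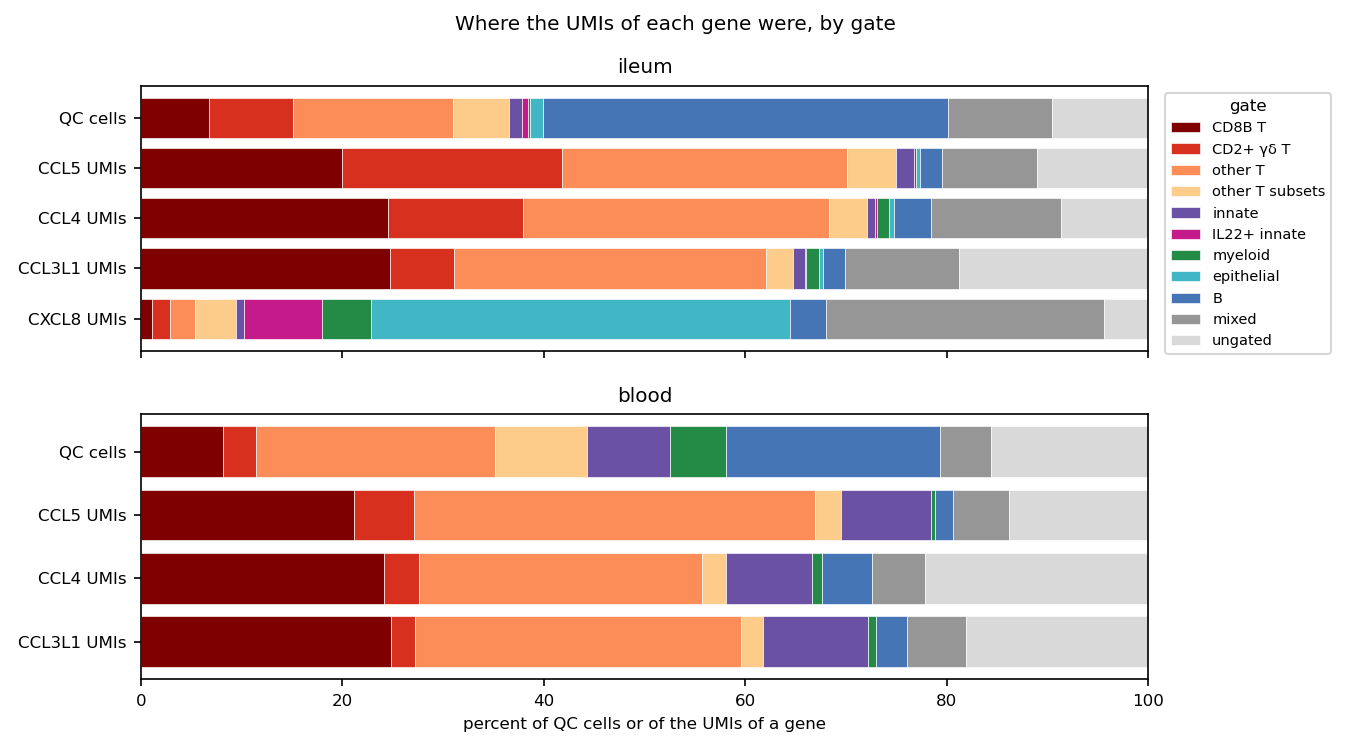
The bars show, for ileum (top) and blood (bottom), the percent of all QC cells in each gate and the percent of each gene's UMIs found there. All libraries of a tissue are pooled. The CC chemokine bars are widest in T cell gates in both tissues, and the ileal CXCL8 bar in epithelial cells (41.6%). CXCL8 has no bar in blood because only 2 UMIs were counted.

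CCL5 was high in CD8B T, γδ T and innate cells and low in CD4 T and B cells of the ileum. Its level was 24134 and 18741 CPM in ileal CD8B T cells, 23820 and 17869 CPM in CD2+ γδ T cells and 14415 and 13589 CPM in innate cells. Ileal CD4 T cells had 1374 and 1115 CPM, IL22+ innate cells 2191 and 1297 CPM and B cells 405 and 304 CPM. The lower of the CD8B T values was thus above the higher CD4 T value in the ileum, while the first pair of gates, CD8B T and CD2+ γδ T, overlapped between pigs. CD2- γδ T cells, which were at 17974 and 9674 CPM, overlapped with innate cells, and IL22+ T cells at 9362 and 6702 CPM lay below both.

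In blood CCL5 was at 16337 and 16422 CPM in CD8B T cells, both below the ileal values, and in the other gates the pigs differed widely. CD2+ γδ T cells had 17067 CPM in pig 1 and 2816 CPM in pig 2, innate cells 16282 and 5933 CPM, and CD2- γδ T cells 6675 and 517 CPM. Pig 1 was the higher in each of these gates. CD4 T cells had 3280 and 1588 CPM, B cells 746 and 497 CPM and myeloid cells 489 and 230 CPM.

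CCL5 UMIs were also found outside cells. Barcodes with few UMIs, which hold free RNA, had 6682 to 21933 CPM of CCL5 in ileal libraries and 18049 and 7950 CPM in PBMC libraries. Ileal B cells lay at 3.37% to 9.72% of this level and ileal CD8B T cells at 109% to 311% across libraries. After each cell was thinned to the least number of UMIs that a cell needed to enter, a CCL5 UMI was seen in 96.1% and 94.4% of ileal CD8B T cells, in 46.3% and 42.8% of CD4 T cells and in 32.5% and 23.0% of B cells, a cell type not known for this gene. The unthinned shares were 98.2% and 96.5% in CD8B T cells and 62.9% and 45.8% in B cells, whose median depths were 2358 to 3277 and 2396 to 4128 UMIs across libraries. The B cell share is taken as background. Only 22 and 63 of the 14215 ileal B cells came from non-PP, so pooled B cell values speak little for the background there. Non-PP B cells had CCL5 at 738 and 1868 CPM, against 405 and 304 CPM in all ileal B cells. In blood the thinned shares were 84.1% and 85.8% in CD8B T cells, 91.6% and 33.0% in CD2+ γδ T cells and 40.9% and 24.1% in B cells.

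Within the ileum the CCL5 level was higher in CD8B T, CD2+ γδ T and innate cells than in CD4 T cells. The test was edgeR's quasi-likelihood test with Benjamini-Hochberg adjustment over all genes tested. The log2 difference was 4.19 ± 0.84 (SE) in CD8B T cells (adjusted p = 0.00218), 4.12 ± 0.83 in CD2+ γδ T cells (adjusted p = 0.00157) and 3.44 ± 0.81 in innate cells (adjusted p = 0.00815). Of all 10028 genes tested, 2.19% were called higher in CD8B T, 5.48% in CD2+ γδ T and 4.72% in innate cells. IL22+ innate cells were lower in CCL5 than the innate gate, which has other rules on CD2 and T cell genes, by -2.92 ± 0.79 (adjusted p = 0.0431). In that contrast 0.828% of genes were called lower and 1.92% higher. None of these 4 calls held with the ileal sums of 1 pig left out, where the lone sum of a gate was assumed to vary like the other groups. Without pig 1 the adjusted p was 0.472 in CD8B T, 0.276 in CD2+ γδ T, 0.336 in innate and 0.503 in IL22+ innate cells, and without pig 2 it was 0.330, 0.255, 0.389 and 0.668. With the free RNA profile subtracted they were not called either (adjusted p = 0.103, 0.0706, 0.109 and 0.365), though the differences were larger, at 6.27, 6.21, 5.47 and -4.13. In narrowed gates the innate difference was 3.90 (adjusted p = 0.00252). Without the whole ileum library of pig 1 alone, the IL22+ innate difference was -3.11 (adjusted p = 0.0581).

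Within blood no gate passed the test for higher CCL5. The differences from CD4 T cells were 2.79 ± 0.79 in CD8B T cells (adjusted p = 0.104), 2.00 ± 0.76 in CD2+ γδ T cells (adjusted p = 0.334) and 2.19 ± 0.77 in innate cells (adjusted p = 0.0502). With pig as a block, since both tissues came from the same pigs, the differences were 2.92 in CD8B T cells (adjusted p = 0.0116) and 2.14 in innate cells (adjusted p = 0.0114), and both were called. In narrowed innate gates CCL5 was at 24920 and 14771 CPM, and the difference from CD4 T cells was 3.03 (adjusted p = 0.0127). Myeloid cells had less CCL5 than CD4 T cells, by -2.67 ± 0.78 (adjusted p = 0.00918), in a contrast where 17.0% of genes were called lower. That call did not hold without the ileal sums of pig 1 (adjusted p = 0.0650) or pig 2 (adjusted p = 0.0626).

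CCL4 was higher in ileum than in blood in CD8B T, CD2+ γδ T and myeloid cells. Its level was 65.2 and 84.0 CPM in ileal CD8B T cells and 12.9 and 27.2 CPM in those of blood. In CD2+ γδ T cells it was 34.7 and 36.2 CPM in the ileum and 9.91 and 5.38 CPM in blood. In myeloid cells, with 22 and 8 UMIs in 52 and 41 ileal cells, it was 71.5 and 39.1 CPM in the ileum and 0 and 1.21 CPM in blood. In each of these gates both ileal values were above both blood values. B cells, the background, had 1.89 and 1.40 CPM in the ileum and 1.86 and 2.05 CPM in blood. In the few B cells of non-PP it was 0 and 9.71 CPM. Free RNA held CCL4 at 26.0 to 77.3 CPM in ileal libraries and at 15.3 and 22.8 CPM in PBMC libraries. Across ileal libraries CD8B T cells lay at 137% to 266% of this level and CD2+ γδ T cells at 44.3% to 210%. Myeloid cells lay at 0% to 289% and B cells at 0% to 12.6%.

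The ileal excess of CCL4 passed the test in these gates. The log2 difference from blood was 1.85 ± 0.30 in CD8B T cells (adjusted p = 1.37e-04, 95% interval 1.26 to 2.44), 2.17 ± 0.40 in CD2+ γδ T cells (adjusted p = 6.82e-04) and 5.71 ± 0.60 in myeloid cells (adjusted p = 3.39e-07). The share of all genes called higher in the ileum was 6.01%, 6.57% and 11.0% in these contrasts. In CD4 T cells, where 4.74% of genes were called higher, CCL4 was at 11.0 and 8.64 against 2.22 and 3.70 CPM and was not called (1.60 ± 0.61, adjusted p = 0.124). In innate cells, where 8.41% were called higher, it was at 13.4 and 19.5 against 10.1 and 10.1 CPM and was not called either (0.66 ± 0.47, adjusted p = 0.388). The innate levels rest on 6 and 14 UMIs in the ileum, and that of pig 1 was 22.4 CPM without its whole ileum library. In narrowed innate gates CCL4 was at 16.4 and 33.5 against 14.2 and 27.5 CPM (0.21, adjusted p = 0.936). The calls in CD8B T, CD2+ γδ T and myeloid cells held in all 4 fits without 1 pig's sums of a tissue, with adjusted p up to 0.0402, 0.0305 and 0.00477. With the second entry added the differences were 1.75 (adjusted p = 1.6e-04), 1.85 (adjusted p = 0.00124) and 5.20 (adjusted p = 4.72e-07), and none of the CCL4 calls changed. Without the whole ileum library of pig 1 the pig 1 levels were 70.1, 42.1 and 61.0 CPM and the calls were kept.

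Genes of the immediate early and NF-κB feedback group, which respond to handling of tissue as well as to signals in the animal, were also higher in the ileum. Of 17 tested, 11 were called higher in CD8B T cells, 12 in CD2+ γδ T cells, 13 in CD4 T cells, 10 in innate cells and 12 in myeloid cells, none was called lower, and their median log2 difference was 2.75, 2.55, 3.54, 2.06 and 2.96, where the median of all genes lay between -0.03 and 0.05. Their part in the CCL4 result was not tested.

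**Figure D2:**
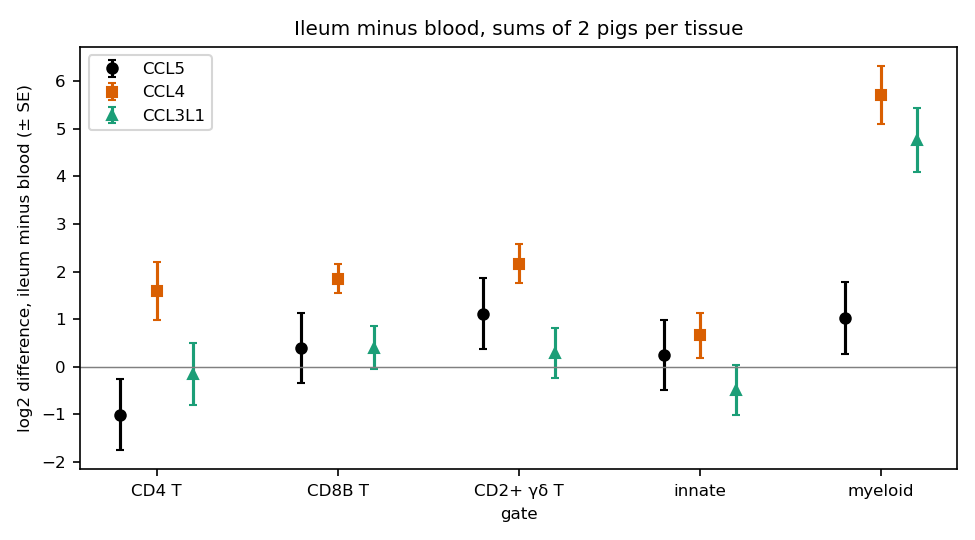
Points give the log2 difference between ileum and blood in each gate for the 3 CC chemokines, with bars of 1 SE from the fit of 2 pigs per tissue. CCL4 lies above 0 by more than its SE in every gate, CCL3L1 near 0 except in myeloid cells (4.76), and CCL5 within 2 SE of 0 in every gate. CXCL8 is left out because blood gates held no UMI.

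CCL3L1 was not called between ileum and blood in any lymphocyte gate tested, but was higher in ileal myeloid cells. Its level was 188 and 220 CPM in ileal CD8B T cells and 91.5 and 215 CPM in those of blood, so the pigs of the tissues overlapped. It was 55.6 and 33.8 against 55.9 and 14.8 CPM in CD2+ γδ T cells, and 91.8 and 62.6 against 126 and 78.2 CPM in innate cells. The log2 differences between ileum and blood were 0.40 ± 0.45 (adjusted p = 0.641), 0.29 (adjusted p = 0.78) and -0.50 (adjusted p = 0.589), and in CD4 T cells -0.15 (adjusted p = 0.983). In myeloid cells CCL3L1 was at 205 and 107 CPM in the ileum and 3.29 and 5.79 CPM in blood, a difference of 4.76 ± 0.68 (adjusted p = 1.69e-05). The myeloid call held in all 4 fits without 1 pig's sums, with adjusted p up to 0.0217, and without the whole ileum library of pig 1 the pig 1 level was 168 CPM.

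CCL5 was not called between ileum and blood in any gate tested. The differences were 0.39 ± 0.73 in CD8B T cells (adjusted p = 0.807, 95% interval -1.05 to 1.83), 1.12 ± 0.74 in CD2+ γδ T cells (adjusted p = 0.362), -1.0 ± 0.74 in CD4 T cells (adjusted p = 0.517), 0.25 in innate cells (adjusted p = 0.892) and 1.03 ± 0.76 in myeloid cells (adjusted p = 0.378). The interval in CD8B T cells leaves room for a change of over 2-fold in either direction.

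Between gates, CCL4 and CCL3L1 were raised in CD8B T over CD4 T cells in the ileum. Ileal CD4 T cells had CCL4 at 11.0 and 8.64 CPM and CCL3L1 at 24.5 and 16.2 CPM, both values below those of CD8B T cells in both pigs. Without the whole ileum library of pig 1 its CCL3L1 level in CD4 T cells was 13.2 CPM. The log2 differences were 2.98 ± 0.38 for CCL4 (adjusted p = 1.46e-05) and 3.38 ± 0.56 for CCL3L1 (adjusted p = 3.51e-04). In CD2+ γδ T cells CCL4 was higher by 1.89 ± 0.39 (adjusted p = 0.00187), and CCL3L1 was not called (1.18 ± 0.57, adjusted p = 0.220). Each of these 3 calls was lost without 1 pig's ileal sums, with adjusted p of 0.0542 and 0.0650 for CCL4 in CD8B T, 0.176 and 0.184 for CCL3L1 in CD8B T and 0.176 and 0.213 for CCL4 in CD2+ γδ T cells, without pig 1 and pig 2.

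Ileal innate cells did not pass the test over CD4 T cells for CCL3L1 or CCL4. CCL3L1 differed by 1.83 ± 0.62 (adjusted p = 0.0697). It passed with pig as a block (1.85, adjusted p = 0.0400), without the whole ileum library of pig 1 (2.78, adjusted p = 0.0296, pig 1 level 184 CPM) and in narrowed gates (2.39, adjusted p = 0.0250). CCL4 differed by 0.73 (adjusted p = 0.442), and by 1.36 in narrowed gates (adjusted p = 0.193). IL22+ innate cells had CCL3L1 at 6.79 and 2.64 CPM, from 3 UMIs against 86 in innate cells, with 11.9 CPM in pig 1 without its whole ileum library, and a ratio of 16.6 of innate over IL22+ innate cells with an exact 95% counting interval of 5.48 to 81.8. This passed the test (adjusted p = 0.0390) but not without the ileal sums of pig 1 (adjusted p = 0.420) or pig 2 (adjusted p = 0.532), without the whole ileum library of pig 1 (adjusted p = 0.0631), with the free RNA profile subtracted (adjusted p = 0.142) or in narrowed gates (adjusted p = 0.0989).

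In blood, CCL4 and CCL3L1 were raised in CD8B T and innate cells. Against CD4 T cells, CD8B T cells were higher in CCL4 by 2.73 ± 0.50 (adjusted p = 0.00545) and in CCL3L1 by 2.83 ± 0.55 (adjusted p = 0.00798), where 0.459% of genes were called higher. Innate cells were higher in CCL4 by 1.67 ± 0.56 (adjusted p = 0.0399) and in CCL3L1 by 2.18 ± 0.56 (adjusted p = 0.00774), where 10.5% were called higher. In narrowed innate gates CCL3L1 was at 171 and 199 CPM, and the differences were 2.75 for CCL4 (adjusted p = 0.00400) and 3.05 for CCL3L1 (adjusted p = 7.82e-04). In CD2+ γδ T cells, where 0.558% of genes were called higher, CCL4 (1.33, adjusted p = 0.534) and CCL3L1 (0.74, adjusted p = 0.869) were not called. Blood myeloid cells were lower in CCL3L1 by -2.03 ± 0.71 (adjusted p = 0.0272), with CCL4 at -1.66 (adjusted p = 0.125).

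Of these blood calls, CCL3L1 in innate cells alone held in all 4 fits without 1 pig's sums of a tissue, with adjusted p up to 0.0429. Without the blood sums of pig 2 the adjusted p was 0.398 for CCL4 and 0.263 for CCL3L1 in CD8B T cells, 0.236 for CCL4 in innate cells and 0.0988 for CCL3L1 in myeloid cells. Without the ileal sums of pig 1, which share the estimate of the spread, it was 0.0825, 0.135, 0.0884 and 0.0674, and without those of pig 2 0.0829, 0.139, 0.0871 and 0.0613. CCL4 in innate cells was also lost without the blood sums of pig 1 (adjusted p = 0.168) and with called doublets removed (1.63, adjusted p = 0.0611).

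Whether the gate differences themselves differed between tissues was tested as an interaction against CD4 T cells. CXCL8 could not be tested in this way, since both blood groups were at 0. None of CCL5, CCL4 and CCL3L1 was called in CD8B T, CD2+ γδ T or innate cells, where 0.379%, 0.499% and 2.11% of genes were called in either direction. For CCL4 the interaction was 0.25 in CD8B T and -0.94 in innate cells, and for CCL5 in CD2+ γδ T cells it was 2.12 ± 1.05 (adjusted p = 0.538). In myeloid cells, a contrast added after the data had been seen, it was 4.11 ± 0.97 for CCL4 (adjusted p = 0.0102) and 4.91 ± 0.94 for CCL3L1 (adjusted p = 0.00199), beside 2.04 for CCL5 (adjusted p = 0.282), and 2.82% of genes were called higher. Both calls were lost without the ileal sums of pig 1 (adjusted p = 0.181 and 0.140) and pig 2 (adjusted p = 0.0703 and 0.0618), and that of CCL4 without the blood sums of pig 2 (adjusted p = 0.134).

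CXCL8 was at 0 in all blood gates and had its own set of ileal cells. Its level was 681 and 198 CPM in epithelial cells, 547 and 523 CPM in IL22+ innate cells, 377 and 552 CPM in myeloid cells and 154 and 66.6 CPM in IL22+ T cells. The first 3 gates overlapped between pigs and all lay above IL22+ T cells. The myeloid level rests on few cells. In pig 2, 2 cells with 33 and 50 UMIs held 83 of 113, and without them its level was 158 CPM, while without the whole ileum library of pig 1 that of pig 1 was 147 CPM. Other innate cells had 38.1 and 27.8 CPM, from 17 and 20 UMIs, with 78.2 CPM in pig 1 without that library. CD2+ γδ T cells had 11.4 and 5.63 CPM, CD8B T cells 4.11 and 8.75 CPM and B cells, the background, 3.75 and 2.46 CPM. The few B cells of non-PP had 10.5 and 0 CPM. In thinned cells a CXCL8 UMI was seen in 32.3% and 12.4% of epithelial cells, 27.0% and 28.1% of IL22+ innate cells, 13.5% and 7.32% of myeloid cells and 5.45% and 1.72% of IL22+ T cells, against 0.597% and 0.176% of B cells. Epithelial cells were the deepest gate, with medians of 6087 to 10567 UMIs, hence the thinning.

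IL22+ innate cells exceeded the innate gate in CXCL8 by 4.15 ± 0.69 (adjusted p = 0.00212). CCL5 and CCL3L1 went the opposite way in the same contrast, with CCL4 at -1.40 (adjusted p = 0.422). These gates differ in the rules on CD2 and T cell genes as well as in IL22, and the part of each was not tested. The CXCL8 call was kept in 3 of 4 fits without 1 pig's sums and lost without the ileal sums of pig 2 (adjusted p = 0.0757). In narrowed gates the IL22+ innate level was 676 and 582 CPM, and without the whole ileum library of pig 1 the pig 1 level was 524 CPM. CXCL8 in innate over CD4 T cells (4.03 ± 1.21, adjusted p = 0.0493) was called in none of the 4 such fits, where adjusted p was 0.0554 to 0.102, and was lost without the whole ileum library of pig 1 (5.07, adjusted p = 0.0713), in narrowed gates (4.00, adjusted p = 0.113), with the free RNA profile subtracted (adjusted p = 0.0778) and with RLE size factors (adjusted p = 0.0503). CXCL8 was not called in CD8B T cells (1.78, adjusted p = 0.587) or CD2+ γδ T cells (2.25, adjusted p = 0.310) against CD4 T cells.

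In blood the only CXCL8 UMIs were 2 in 1 cell of pig 2 that no gate took. A count of 0 allows shares of up to 0.405% of blood myeloid cells, 0.275% of innate cells and 0.107% of B cells with a UMI, and such limits cover counting error only. Against a floor of 3 counts over the blood group, CXCL8 was at least 799-fold higher in ileal than blood myeloid cells and at least 46.0-fold in innate cells. It was at least 11.4-fold higher in CD8B T cells and at least 6.37-fold in CD2+ γδ T cells. B cells, the background, gave at least 12.8-fold, above the bounds of both these T cell gates. Across ileal libraries CXCL8 lay at 0% to 43.5% of the free RNA level in CD8B T cells. It lay at 4.98% to 52.3% in CD2+ γδ T cells and at 0% to 13.7% in B cells. In innate cells it lay at 0% to 129% and in myeloid cells at 0% to 2887% of that level. Of the 37 CXCL8 UMIs of ileal innate cells, 11 and 19 were in non-PP and 3 and 0 in PP. The myeloid bound was 525-fold without the 2 cells of most CXCL8 UMIs and 632-fold without the whole ileum library of pig 1. The adjusted p was 3.29e-06 in myeloid, 0.00291 in innate, 0.0356 in CD8B T, 0.0779 in CD2+ γδ T and 0.551 in CD4 T cells. The myeloid call held in all 4 fits without 1 pig's sums (adjusted p up to 6.95e-04). That of innate cells was lost without the blood sums of pig 2 (adjusted p = 0.0630) and in narrowed gates (adjusted p = 0.0670), and that of CD8B T cells without the blood sums of pig 1 (adjusted p = 0.131) or pig 2 (adjusted p = 0.241). The levels in CD8B T and B cells of the ileum were near each other, and with the free RNA profile subtracted CXCL8 in CD8B T cells was no longer called (adjusted p = 0.303), nor was it with sums per library (adjusted p = 0.0505).

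**Figure D3:**
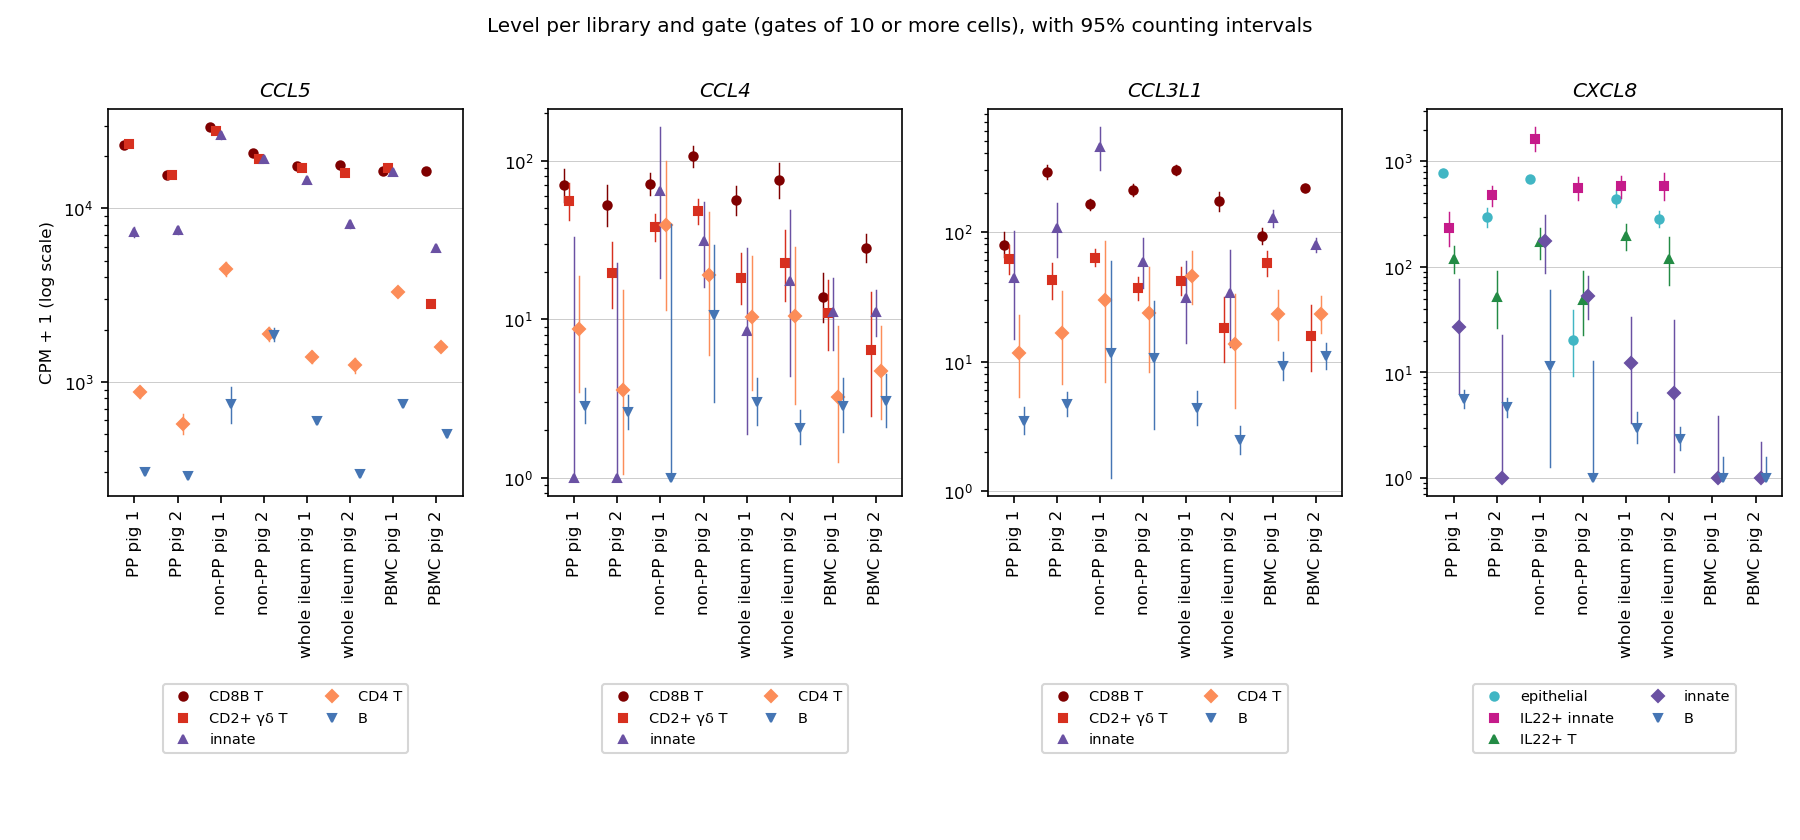
Each panel gives the level of 1 gene in each of the 8 libraries as CPM + 1 on a log scale with 95% counting intervals, for gates of 10 or more cells. CCL5 in CD8B T cells stays between 15617 and 29308 CPM, while CCL5 in CD4 T cells runs from 571 to 4446 CPM and epithelial CXCL8 from 19.2 to 780 CPM.

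Between the ileal dissections, CCL5 in CD4 T cells was lower in PP than in non-PP. It was 873 and 571 CPM in PP, 4446 and 1887 CPM in non-PP and 1393 and 1241 CPM in whole ileum, so both non-PP libraries were above both PP libraries. The difference of PP from non-PP was -2.17 ± 0.52 (adjusted p = 0.0351), where 0.374% of 7215 genes were called lower in CD4 T cells. It was not called without the PP library of pig 1 (-2.40, adjusted p = 0.335) or pig 2 (-1.92, adjusted p = 0.472), without the non-PP library of pig 1 (-1.45, adjusted p = 0.286), with doublets removed (-2.03, adjusted p = 0.0590), with narrowed gates in the fit (-2.06, adjusted p = 0.0961) or with the free RNA profile subtracted (-4.01, adjusted p = 0.333). Innate cells had CCL5 at 7326 and 7469 CPM in PP and 26399 and 19208 CPM in non-PP, without overlap, but the difference was not called (-1.43 ± 0.50, adjusted p = 0.171), where 0.873% of genes were called in either direction. Free CCL5 RNA moved the same way, with 7438 and 6682 CPM in PP against 21933 and 19217 CPM in non-PP. CD4 T cells lay at 11.7% and 8.55% of it in PP and at 20.3% and 9.82% in non-PP, and innate cells at 98.5% and 112% and at 120% and 99.95%.

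CCL4 and CCL3L1 were not called between PP and non-PP in any gate tested. In CD8B T cells CCL4 was at 69.1 and 51.7 CPM in PP, 70.6 and 106 CPM in non-PP and 55.2 and 74.8 CPM in whole ileum (-0.48 ± 0.34, adjusted p = 1). The values of pig 1 in PP and non-PP were nearly equal there. In CD4 T cells CCL4 was at 7.63 and 2.59 against 38.3 and 18.1 CPM (-2.18 ± 0.92, adjusted p = 0.406). In innate cells it was at 0 and 0 against 63.4 and 30.2 CPM (adjusted p = 0.107). How often other genes part in this way between 2 and 2 libraries was not counted. These rest on 5 and 1 against 4 and 4 UMIs in CD4 T cells and on 0 and 0 against 4 and 11 in innate cells. In CD2+ γδ T cells CCL4 was at 54.6 and 18.5 against 37.3 and 46.9 CPM, with overlap. CCL3L1 in CD8B T cells was at 78.6 and 286 CPM in PP, 161 and 209 CPM in non-PP and 298 and 170 CPM in whole ileum, and the pigs lay farthest apart in PP. The share of genes called in either direction was 0.0970% in CD8B T and 0.0832% in CD2+ γδ T cells. Epithelial CXCL8 was at 780 and 294 CPM in PP, 672 and 19.2 CPM in non-PP and 443 and 283 CPM in whole ileum. The library labelled pig 1 was the higher in each dissection, though that of whole ileum went against its label. IL22+ innate CXCL8 was at 233 and 474 CPM in PP, 1638 and 561 CPM in non-PP and 577 and 579 CPM in whole ileum, and neither gate was in the planned tests. In the gates tested CXCL8 was not called. PP differed from non-PP by -2.74 ± 1.83 in innate (adjusted p = 0.590), -2.06 in CD8B T and 1.79 in CD2+ γδ T cells. These rest on 3 and 0 against 11 and 19 UMIs in innate, 5 and 0 against 13 and 30 in CD8B T and 23 and 13 against 23 and 5 in CD2+ γδ T cells. In CD4 T cells both groups were at the floor.

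Within single cells, CCL4 was seen more often where CCL3L1 was seen. Among ileal T cells thinned in this way, CCL4 was seen in 13.7% and 19.5% of cells with a CCL3L1 UMI and in 3.94% and 4.01% of cells without. Both pigs showed the same within ileal CD8B T cells alone (13.8% and 18.6% against 6.37% and 8.19%) and within CD2+ γδ T cells (10.2% and 21.6% against 4.02% and 3.16%). In blood T cells CCL4 was seen in 4.39% and 6.30% of cells with CCL3L1 and 1.39% and 1.00% of cells without. These shares pool the libraries of a pig and tissue and carry no test. Detection differed between ileal libraries. Before thinning, CCL4 was seen in 10.3% and 10.8% of all non-PP cells and in 3.30% and 2.24% of all PP cells. The part of such differences in the shares was not tested. The ileal shares of pig 1 hold the whole ileum library that went against its label, and they are not given without it.

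The cells with CCL4 and CCL3L1 also carried effector genes. IFNG encodes interferon-γ and GZMB the protease granzyme B. CCL3L1 was seen in 16.1% and 15.1% of ileal T cells with IFNG against 7.79% and 6.56% without, and in 11.0% and 9.78% with GZMB against 3.51% and 2.28% without. Cells with CCR7, the homing receptor of naive and central memory T cells, had CCL3L1 in 1.30% and 2.33% against 8.96% and 7.78% without. CCL4 was seen in 4.34% and 3.23% of ileal T cells with FOS, an immediate early gene, and in 4.91% and 5.58% without. NFKBIA, an NF-κB feedback gene, gave CCL4 in 4.99% and 5.84% with and 4.74% and 5.03% without. These shares pool all ileal T cell gates, which differ in such genes. Of 17 immediate early and NF-κB feedback genes tested, 5 were called lower and 0 higher in ileal CD8B T than CD4 T cells. Over all genes 3.02% were called lower and 2.19% higher there. The part of gate make-up in the shares was not tested.

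For CCL5 the shares were higher throughout. In ileal T cells it was seen in 99.0% and 98.8% of cells with KLRK1 and 76.4% and 74.3% without, and in 39.3% and 39.3% of cells with CCR7 against 86.6% and 83.5% without. In blood T cells CCL3L1 was nearly absent from cells without CCL5, at 0.496% and 0.399%, against 12.53% and 15.7% of cells with it. In the IL22+ innate gate CXCL8 was seen in 34.9% and 33.3% of cells with NFKBIA against 19.6% and 22.4% without, and in 20.5% and 23.1% of cells with CCL5 against 32.0% and 31.9% without.

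**Figure D4:**
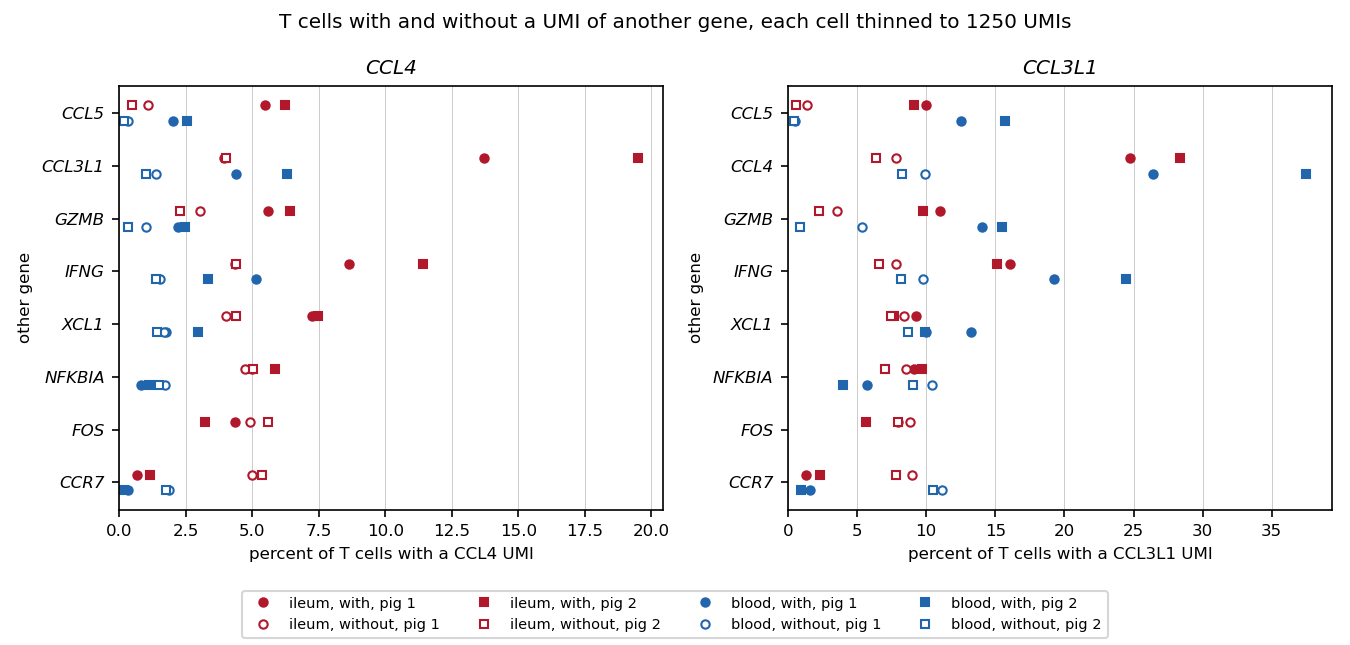
Points give the percent of T cells with a CCL4 UMI (left) or CCL3L1 UMI (right) among cells with (filled) and without (open) a UMI of the gene on the vertical axis, per pig and tissue, with all cells thinned to the same number of UMIs. Filled points lie right of open points for CCL5, GZMB, IFNG and the other chemokine of the pair in both tissues and left of them for CCR7.

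Across the 38 summed profiles of tissue, gate and pig, the genes whose log2(CPM + 1) ran most like each member were as follows, as a description over profiles that share libraries and pigs. For CCL5 they were PRF1 (perforin, Pearson's r = 0.939), ENSSSCG00000026217 (0.922) and CD8A (0.918). For CCL4 they were HAVCR2, which encodes the inhibitory receptor TIM-3 (0.833), CCL3L1 (0.826) and SIPA1 (0.809), and for CCL3L1 they were CCL4 (0.826), AOAH (0.792) and IGF2R (0.761). For CXCL8 they were SCIN, which encodes the actin-severing scinderin (0.944), the neutrophil attractant CXCL2 (0.927) and PKIB (0.904). CCL5 ran with CCL3L1 at 0.746 and with CCL4 at 0.659, and CXCL8 with these 3 genes at -0.08 to 0.32.

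Of the 7 listed receptors of these chemokines, 5 were named in the matrices and 4 could be tested. CCR3, a receptor of CCL5, was lower in ileal than blood T cells. The share of all genes called lower in the ileum was 4.78% in CD8B T, 2.77% in CD4 T, 5.91% in CD2+ γδ T, 8.32% in innate and 10.6% in myeloid cells. It was at 1.23 and 1.17 CPM in ileal CD8B T cells and 52.9 and 62.1 CPM in those of blood (adjusted p = 1.61e-04), and at 1.69 and 1.08 against 35.5 and 19.7 CPM in CD4 T cells (adjusted p = 0.0324). In CD2+ γδ T cells it was also lower, at 0.569 and 0 against 32.6 and 1.35 CPM (adjusted p = 0.00205), and the blood values again parted by pig. CCR1, shared by CCL5 and the MIP-1α type, was lower in the ileum in CD8B T (0 and 0 against 1.84 and 7.15 CPM, adjusted p = 0.00305), CD2+ γδ T (0 and 0 against 0.708 and 8.08 CPM, adjusted p = 0.0208), innate (0 and 1.39 against 20.2 and 30.4 CPM, adjusted p = 0.00549) and myeloid cells (13.0 and 4.89 against 44.4 and 56.4 CPM, adjusted p = 0.0275). The blood innate gate also held the myeloid genes LYZ, as given above, and CSF1R at 109 and 141 CPM. Blood T cell gates held less of them, with LYZ at 27.1 and 79.0 CPM in CD8B T and 49.5 and 245 CPM in CD2+ γδ T cells. CSF1R was at 0.920 and 2.00 CPM and at 2.12 and 16.2 CPM in these gates. Both genes were higher in pig 2, as CCR1 was. The part of myeloid RNA in the low CCR1 levels of T cells was not tested. The blood CD2+ γδ T gate held 1412822 and 743009 UMIs of all genes, so its CCR1 levels rest on few UMIs. Receptor calls are not given for fits without 1 pig's sums. In narrowed innate gates CCR1 was at 0 and 0 CPM in the ileum and at 1.58 and 2.50 CPM in blood, from 1 and 2 UMIs.

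Of 31 other chemokine ligands, 24 were named and 18 tested. Between ileum and blood, 3 were called higher in CD8B T cells and 1 lower, 1 higher and 1 lower in CD2+ γδ T cells, 1 higher in CD4 T cells, 3 higher and 2 lower in innate cells and 7 higher in myeloid cells. Over all genes 6.01% were called higher and 4.78% lower in CD8B T cells and 6.57% and 5.91% in CD2+ γδ T cells. These shares were 4.74% and 2.77% in CD4 T, 8.41% and 8.32% in innate and 11.0% and 10.6% in myeloid cells. The counts in CD2+ γδ T and CD4 T cells and the lower counts in CD8B T and innate cells are near that background. XCL1 (lymphotactin), which draws cross-presenting dendritic cells, was 623 and 648 CPM in ileal CD8B T cells and 17.7 and 11.9 CPM in CD4 T cells, the 1 ligand called in that contrast. Of 20 cytotoxic and cytokine effector genes, 17 were tested, and 6 were called higher and 3 lower in ileal CD8B T than CD4 T cells, where 2.19% of all genes were called higher and 3.02% lower. GZMB was at 10014 and 9848 CPM against 604 and 490 CPM. Between ileum and blood 3 of them were called higher and 2 lower in CD8B T cells, where IFNG was at 157 and 195 against 47.4 and 52.1 CPM.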

How the data were processed

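Each of the 8 libraries was sequenced in 4 runs, listed as 32 samples, and was counted here as 1 library. The authors made the deposited UMI counts with CellRanger (4.0.6 in the submitters' processing notes) on the pig genome assembly Sscrofa11.1 with a modified Ensembl annotation. The deposited counts are raw whole numbers for 25880 genes and 737280 barcodes per library, from before the removal of free RNA, poor cells and doublets, so they still hold these. The libraries held 21134542 to 40111934 UMIs, and intervals cover counting error only.

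Cells were chosen by the thresholds of the study's methods. No doublet caller was used for the main values, and cells with UMIs of 2 or more lineage genes, 2.94% to 16.4% per library, stayed out of every gate. Removing the doublets called by Scrublet (scanpy 1.11.5, score above 0.25, 2.72% to 3.82% of cells) was an alternative. Counts were summed per pig, tissue and gate where both pigs had at least 20 cells and tested with edgeR 4.0.16 (R 4.3.3; TMM, filterByExpr, quasi-likelihood test) in 1 fit of 38 sums in 19 groups and 10028 genes. Dissections were tested per library in 58 sums and 7215 genes. A gene was called at an adjusted p below 0.05 (Benjamini-Hochberg over all genes tested). The test was also run on simulated counts, drawn independently for each sum with no pig effect. That run cannot check the assumption that sums of 1 pig are independent. Thinned shares take from each cell the least number of UMIs that a cell needed to enter. Free RNA was read from barcodes of at most 100 UMIs, and 10% of its profile was subtracted in 1 alternative.

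Ileum and blood came from the same pigs, so pig numbers pair the samples. The deviations of same-numbered sums correlated at 0.0515 to 0.236 between tissues and at 0.118 to 0.441 between PP and non-PP. Alternatives were the pig as a block, RLE size factors, DESeq2 1.42.0, no filter, doublets removed, free RNA subtracted, sums per library, each pig or library left out and the whole ileum library of pig 1 left out. Narrowed innate gates (without cells holding CST3, LYZ, CSF1R, CD14, AIF1, CD79A, MS4A1 or JCHAIN), the summed CCL4 entries, the myeloid interaction and myeloid CXCL8 without the 2 cells of most UMIs were added after the data had been seen.

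The genes named are the 4 members in every comparison, the 3 genes most like each of them, their receptors, and at most 3 called genes per list and contrast with the largest difference, besides markers named to check the gates. Some listed genes are not reported here. The members, gates and lists were chosen with earlier results of these data known. Other tools were pandas 2.3.3, scipy 1.17.1, numpy 2.4.6 and matplotlib 3.10.9 under Python 3.11.15. The authors' corrected counts and cell annotations were not used here.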

Additional observations from a re-analysis of the deposited data

Results flagged for a closer look

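For CCL4 and CCL3L1 the difference of ileum from blood was larger in myeloid than in CD4 T cells. It was larger by 4.11 and 4.91 on the log2 scale in a test of the difference itself (adjusted p = 0.0102 and 0.00199). The contrast was added after the data had been seen, and both calls were lost without the ileal sums of either pig. In CD4 T cells neither gene was called between the tissues, and CCL3L1 differed by -0.15. The ileal myeloid gate held 52 and 41 cells and the blood myeloid gate 184 and 556, with different marker levels.

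CCL4 in CD2- γδ T cells lay above CD4 T cells in the ileum by a mean of 4.18 CPM, with both pigs higher, and below them in blood by a mean of -0.67 CPM, with both pigs lower. The blood values rest on 1 and 3 UMIs against 2 and 6 in CD4 T cells. With the second CCL4 entry added they were 4.85 and 3.35 against 3.33 and 4.31 CPM, so that pig 1 was higher and pig 2 lower. This difference between the tissues was not tested.

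In PP of pig 1, 595 CCL3L1 UMIs lay in 1 cell that no gate took, which held 2714 UMIs in all. Without this cell the CCL3L1 level of that library was 26.9 CPM in place of 46.1 CPM.

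Ileal cells with UMIs of 2 or more lineage genes, which are in no comparison, held 1289 CXCL8 UMIs, 27.6% of all in the ileum.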

How the results depend on the processing

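Of the 26 member differences that were called, 343 alternatives were run, all kept the direction and 277 kept the call. The tally includes alternatives that leave a test almost untouched, such as the summed CCL4 entries for the other genes. Another 49 differences were not called, 9 tests of CXCL8 are left out because both groups, or the blood groups of an interaction, were at the floor, and the cause of a change was not tested. Values are log2 differences, and those of CXCL8 against blood at 0 depend on the prior count and are no bounds. With pig as a replicate block, CCL3L1 in innate cells (1.85) against CD4 T cells of the ileum and CCL5 in CD8B T cells (2.92) and CCL5 in innate cells (2.14) against CD4 T cells of blood now passed. With DESeq2, CXCL8 in CD2+ γδ T cells (5.59) between ileum and blood, CCL3L1 in innate cells (1.91) against CD4 T cells of the ileum and CCL5 in CD8B T cells (2.77) and CCL5 in innate cells (2.19) against CD4 T cells of blood now passed. With RLE size factors, CXCL8 in innate cells (4.07) against CD4 T cells of the ileum no longer passed. With sums per library, CXCL8 in CD8B T cells (6.52) between ileum and blood no longer passed. Without the filter on low counts, CCL5 in CD4 T cells (-1.02), CCL5 in CD2+ γδ T cells (1.14), CXCL8 in CD2+ γδ T cells (8.03) and CCL5 in myeloid cells (0.96) between ileum and blood, CCL3L1 in CD2+ γδ T cells (1.20), CXCL8 in CD2+ γδ T cells (2.27) and CCL3L1 in innate cells (1.82) against CD4 T cells of the ileum, CCL5 in CD8B T cells (2.82), CCL5 in CD2+ γδ T cells (1.99) and CCL5 in innate cells (2.20) against CD4 T cells of blood, CCL5 in CD8B T cells (1.39), CCL5 in CD2+ γδ T cells (2.16), CCL5 in innate cells (1.24) and CCL5 in myeloid cells (1.97) in the interaction with tissue and CXCL8 in CD2+ γδ T cells (1.78), CCL5 in innate cells (-1.41), CCL4 in innate cells (-8.70) and CXCL8 in innate cells (-2.73) between PP and non-PP now passed. With called doublets removed, CCL3L1 in CD4 T cells (0.020) between ileum and blood changed sign and did not pass. Newly called there was CCL5 in innate cells (2.26) against CD4 T cells of blood. No longer called there were CCL4 in innate cells (1.63) against CD4 T cells of blood and CCL5 in CD4 T cells (-2.03) between PP and non-PP. With free RNA subtracted, CXCL8 in CD4 T cells (0) between ileum and blood and CCL4 in CD8B T cells (-0.39) in the interaction with tissue changed sign and did not pass. No longer called there were CXCL8 in CD8B T cells (6.54) between ileum and blood, CCL5 in CD8B T cells (6.27), CCL5 in CD2+ γδ T cells (6.21), CCL5 in innate cells (5.47) and CXCL8 in innate cells (9.66) against CD4 T cells of the ileum, CCL5 in IL22+ innate cells (-4.13) and CCL3L1 in IL22+ innate cells (-5.38) against other innate cells of the ileum and CCL5 in CD4 T cells (-4.01) between PP and non-PP. Newly called there was CCL5 in myeloid cells (12.17) between ileum and blood. Without the whole ileum library of pig 1, CCL3L1 in innate cells (2.78) against CD4 T cells of the ileum now passed. No longer called there were CXCL8 in innate cells (5.07) against CD4 T cells of the ileum and CCL5 in IL22+ innate cells (-3.11) and CCL3L1 in IL22+ innate cells (-4.20) against other innate cells of the ileum. Not called but of another sign there was CCL3L1 in innate cells (0.59) in the interaction with tissue. With narrowed innate gates, CCL5 in innate cells (-0.13) between ileum and blood changed sign and did not pass. No longer called there were CXCL8 in innate cells (9.78) between ileum and blood, CXCL8 in innate cells (4.00) against CD4 T cells of the ileum, CCL3L1 in IL22+ innate cells (-4.04) against other innate cells of the ileum and CCL5 in CD4 T cells (-2.06) between PP and non-PP. Newly called there were CCL3L1 in innate cells (2.39) against CD4 T cells of the ileum and CCL5 in innate cells (3.03) against CD4 T cells of blood. The block changed no other call. Myeloid CXCL8 without the 2 cells of most UMIs had a mean level of 268 CPM in place of 465 CPM. The gates hold few cells in myeloid, innate and IL22+ innate cells, which limits what can be seen there. After thinning of all cells to 1 number of UMIs, 52 of the shares of cells with a UMI moved by more than the spread between pigs. Another 24 did not. Such shares fall when UMIs are removed, and CPM levels were not thinned. Over the summed CCL4 entries, no CCL4 test changed its call, and tests of the other genes could hardly change.

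Leaving out 1 pig's sums of a tissue at a time, or 1 ileal library at a time for PP against non-PP, gave the following lowest and highest log2 differences for the results that changed in at least 1 of these fits. Between ileum and blood they were -1.40 to -0.41 for CCL5 in CD4 T, -0.46 to 0.062 for CCL3L1 in CD4 T, 0 to 6.48 for CXCL8 in CD4 T and -0.078 to 1.15 for CCL3L1 in CD8B T cells. They were 6.88 to 7.96 for CXCL8 in CD8B T, 0.33 to 2.98 for CCL5 in CD2+ γδ T, -0.27 to 1.70 for CCL3L1 in CD2+ γδ T and 7.32 to 8.34 for CXCL8 in CD2+ γδ T cells. They were -0.28 to 1.13 for CCL5 in innate, 9.56 to 9.95 for CXCL8 in innate and 0.44 to 1.62 for CCL5 in myeloid cells. Against CD4 T cells of the ileum they were 4.08 to 4.26 for CCL5 in CD8B T, 2.69 to 3.28 for CCL4 in CD8B T, 3.06 to 3.77 for CCL3L1 in CD8B T and 4.01 to 4.23 for CCL5 in CD2+ γδ T cells. They were 1.77 to 2.07 for CCL4 in CD2+ γδ T, 3.34 to 3.55 for CCL5 in innate, 1.81 to 1.90 for CCL3L1 in innate and 3.43 to 9.56 for CXCL8 in innate cells. Against other innate cells of the ileum they were -3.27 to -2.68 for CCL5 in IL22+ innate, -4.43 to -3.72 for CCL3L1 in IL22+ innate and 3.88 to 4.35 for CXCL8 in IL22+ innate cells. Against CD4 T cells of blood they were 2.37 to 3.39 for CCL5 in CD8B T, 2.57 to 2.89 for CCL4 in CD8B T, 2.09 to 3.30 for CCL3L1 in CD8B T and 0.73 to 2.37 for CCL5 in CD2+ γδ T cells. They were -0.68 to 1.33 for CCL3L1 in CD2+ γδ T, 1.90 to 2.32 for CCL5 in innate, 1.44 to 2.18 for CCL4 in innate and -2.70 to -2.61 for CCL5 in myeloid cells. They were -2.60 to -1.84 for CCL3L1 in myeloid cells. In the interaction with tissue they were -0.044 to 0.53 for CCL4 in CD8B T, 1.74 to 3.40 for CCL5 in CD2+ γδ T, -0.26 to 1.45 for CCL4 in CD2+ γδ T and -0.16 to 1.86 for CCL3L1 in CD2+ γδ T cells. They were 1.33 to 2.59 for CCL5 in myeloid, 3.70 to 8.66 for CCL4 in myeloid and 4.64 to 5.52 for CCL3L1 in myeloid cells. Between PP and non-PP they were -2.53 to -1.45 for CCL5 in CD4 T, -0.61 to 0.023 for CCL5 in CD8B T, -1.18 to 0.72 for CCL3L1 in CD8B T and -0.55 to 0.095 for CCL5 in CD2+ γδ T cells. They were -1.11 to 0.41 for CCL4 in CD2+ γδ T, -0.25 to 0.61 for CCL3L1 in CD2+ γδ T and -2.06 to 0.61 for CCL3L1 in innate cells.

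The number of all genes called moved as follows between the main value and the range over alternatives, leaving out pigs included. Between ileum and blood it was 753 (270 to 1012) in CD4 T, 1082 (360 to 1646) in CD8B T, 1252 (384 to 1815) in CD2+ γδ T, 1677 (546 to 2046) in innate and 2167 (735 to 2447) in myeloid cells. Within the ileum it was 523 (26 to 767) in CD8B T, 1030 (113 to 1422) in CD2+ γδ T, 831 (96 to 1178) in innate and 276 (19 to 488) in IL22+ innate cells. Within blood it was 85 (14 to 295) in CD8B T, 87 (14 to 287) in CD2+ γδ T, 1705 (460 to 2137) in innate and 3529 (1912 to 3941) in myeloid cells. In the interaction with tissue it was 38 (0 to 154) in CD8B T, 50 (0 to 225) in CD2+ γδ T, 212 (0 to 448) in innate and 664 (76 to 895) in myeloid cells. Between PP and non-PP it was 46 (4 to 109) in CD4 T, 7 (1 to 80) in CD8B T, 6 (0 to 88) in CD2+ γδ T and 63 (7 to 208) in innate cells.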

Other observations

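In blood T cells CCL3L1 was seen in 14.5% and 20.5% of thinned cells with a UMI of KLRK1, a receptor of killer cells, against 6.22% and 7.72% of cells without. The pigs differed in how many such cells they had, 1501 in pig 1 and 210 in pig 2, and pig 1 was also the higher in CCL5 in blood CD2+ γδ T and innate cells.

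In the ileum XCL1 was at 932 and 1013 CPM in CD2+ γδ T cells, and at 832 and 779 CPM in IL22+ innate cells against 184 and 250 CPM in other innate cells. In myeloid cells of the ileum CXCL14 was at 7279 and 2917 CPM against 0 and 2.89 CPM in blood, and CCL22, a ligand of CCR4, was at 39.0 and 39.1 CPM against 0 and 0 CPM in blood.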
